A study of Mus musculus with 6 samples.

Results

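Microglia are the resident macrophages of the brain, and 34 genes that mark them and related macrophages were followed in hippocampus RNA from WT and Prmt9 KO mice. The genes were set by a list of symbols that states no measured value, drawn up with earlier results of these data known, and all 34 were found among the 36008 genes of the deposited table. The study asked how loss of PRMT9, a protein arginine methyltransferase that methylates the splicing factor SF3B2, changes RNA in the hippocampus. It compared 3 WT with 3 Prmt9 KO females of 2 weeks on the B6J background, the WT mice being littermates of the same sex. In the KO mice, exon 5 of Prmt9 had been deleted in the germline from a floxed allele with a CMV-Cre line, so the deletion was not limited to one cell type. Polyadenylated RNA of whole hippocampus was sequenced, and microglia were not sorted. In such bulk samples fewer microglia and less RNA per microglial cell cannot be told apart.

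Microglia arise from yolk sac progenitors and live on signals from their surroundings, above all CSF1 and IL-34, which bind the receptor CSF1R, and TGF-beta. In the resting state they survey the tissue with the purinergic receptor P2RY12 and the fractalkine receptor CX3CR1. In the second postnatal week they take up synapses tagged by the complement protein C1q, whose chains they make themselves. When they are activated, TREM2 and its signalling partner TYROBP, Fc receptors and lysosomal proteins such as CD68 are known to be raised. Of the members, 12 were taken as homeostatic (Cx3cr1, P2ry12, P2ry13, Tmem119, Csf1r, Fcrls, Siglech, Gpr34, Sall1, Selplg, Olfml3 and Slco2b1) and 10 as activated (Trem2, Tyrobp, Ctss, Cd68, Fcer1g, Fcgr3, Lyz2, Laptm5, C3ar1 and Cd53). The other 12 members mark macrophages or leukocytes in either state.

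Prmt9 itself stood at 11.8, 15.2 and 14.96 TPM (a level scaled by transcript length and library total) in the WT mice and at 3.93, 4.61 and 4.67 TPM in the KO mice. The groups lay apart, with a log2 fold change of −1.71 (SE 0.099, edgeR's quasi-likelihood test, adjusted p = 0.0327). The estimated counts summed to between 194098391 and 286771677 per mouse, of which the members took 0.062% to 0.0758%. Both mice numbered 1 stood apart from the other 4 mice: on the first principal component, which held 81.7% of the variance, WT mouse 1 lay at −50.4 and KO mouse 1 at −35.3, whereas the others lay between 18.4 and 23.7. WT mouse 1 also had no count for 37.4% of the transcripts, against 22.8% to 24.8% in the other mice. Results that turn on these mice are therefore given with and without them.

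All 34 members were measured in every mouse, and the lowest estimated count of any of them was 177, for Runx1 in 1 mouse. Per transcript length, the members spanned 0.262 to 112.8 TPM. The most abundant were Tyrobp, the C1q genes, Csf1r and Ctss, and the least abundant Runx1 and C3ar1, both under 1 TPM on average. The genes by which microglia are told from other brain macrophages, Tmem119, P2ry12, Fcrls, Siglech and Sall1, were present in all 6 mice. The labelled cell types are therefore both represented, with the border macrophage gene Mrc1 at 2.45 to 3.11 TPM.

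**Figure D1:**
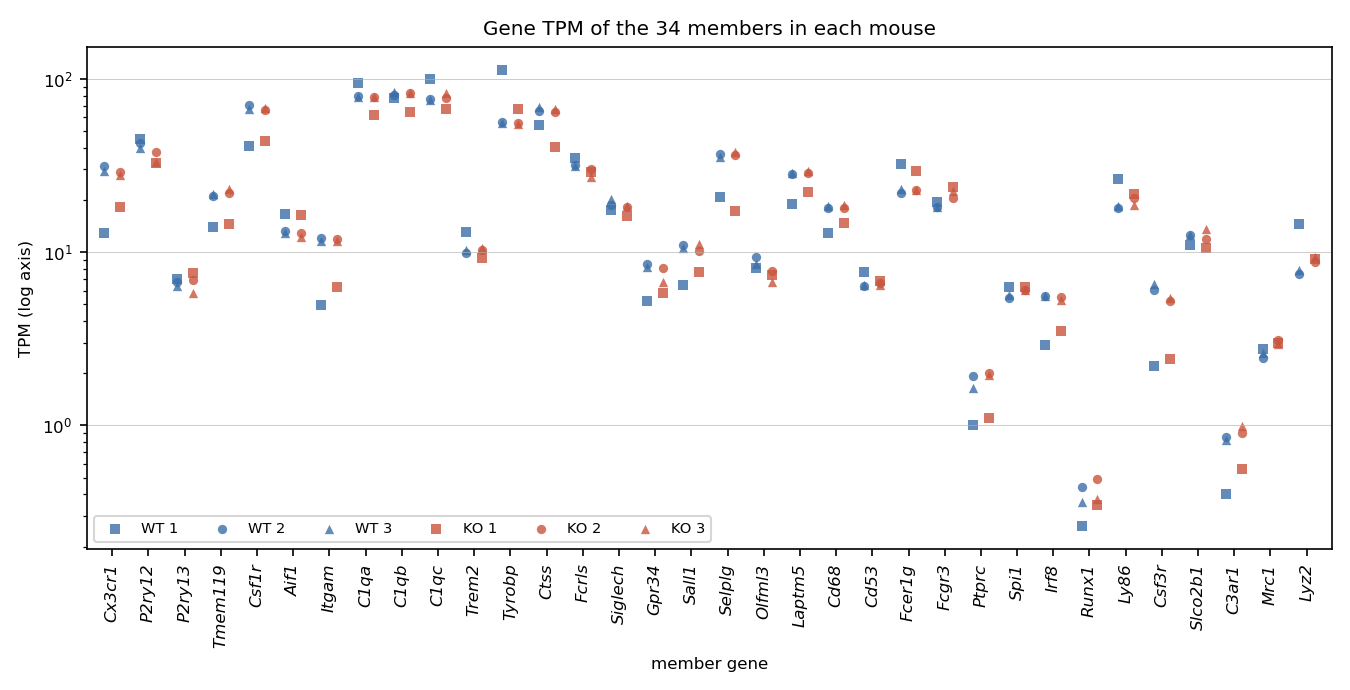
Gene TPM (log axis) of the 34 members in each of the 6 mice, with WT in blue, Prmt9 KO in red and 1 marker shape per mouse number. The squares, which are the mice numbered 1, lie away from the other mice of their genotype for many genes (WT mouse 1 at 112.8 TPM for Tyrobp and 12.9 TPM for Cx3cr1), and the colours mostly overlap.

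No member passed the study's threshold of an adjusted p below 0.01 with a fold change above 1.5. Of 20335 genes tested, edgeR called 0 (0%). Prmt9, the deleted gene, was among those not called (edgeR, adjusted p = 0.0327), so a missing call says little about small differences. The smallest adjusted p of a member was 0.99989. DESeq2 and limma called 0 members as well. At an unadjusted p below 0.05, edgeR gave 1 of the 34 members, Olfml3, which was lower in KO, and DESeq2 gave the same single gene, whereas limma on log2(TPM + 1) gave P2ry12 alone. Over all genes tested, 0.787% were higher and 0.448% lower at that level. The log2 fold changes of the members lay between −0.46 for Tyrobp and 0.19 for C3ar1, with 8 above and 26 below 0. Their median was −0.12, against −0.01 over all genes tested. Without both mice numbered 1, the medians were −0.0044 for the members and −0.00032 for all genes, and 15 of the 34 members were above 0. The members' summed level was 846.0, 836.8 and 833.1 TPM in the WT mice and 688.0, 827.6 and 831.8 TPM in the KO mice. The sum was thus lowest in KO mouse 1, and the other 5 mice differed little.

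**Figure D2:**
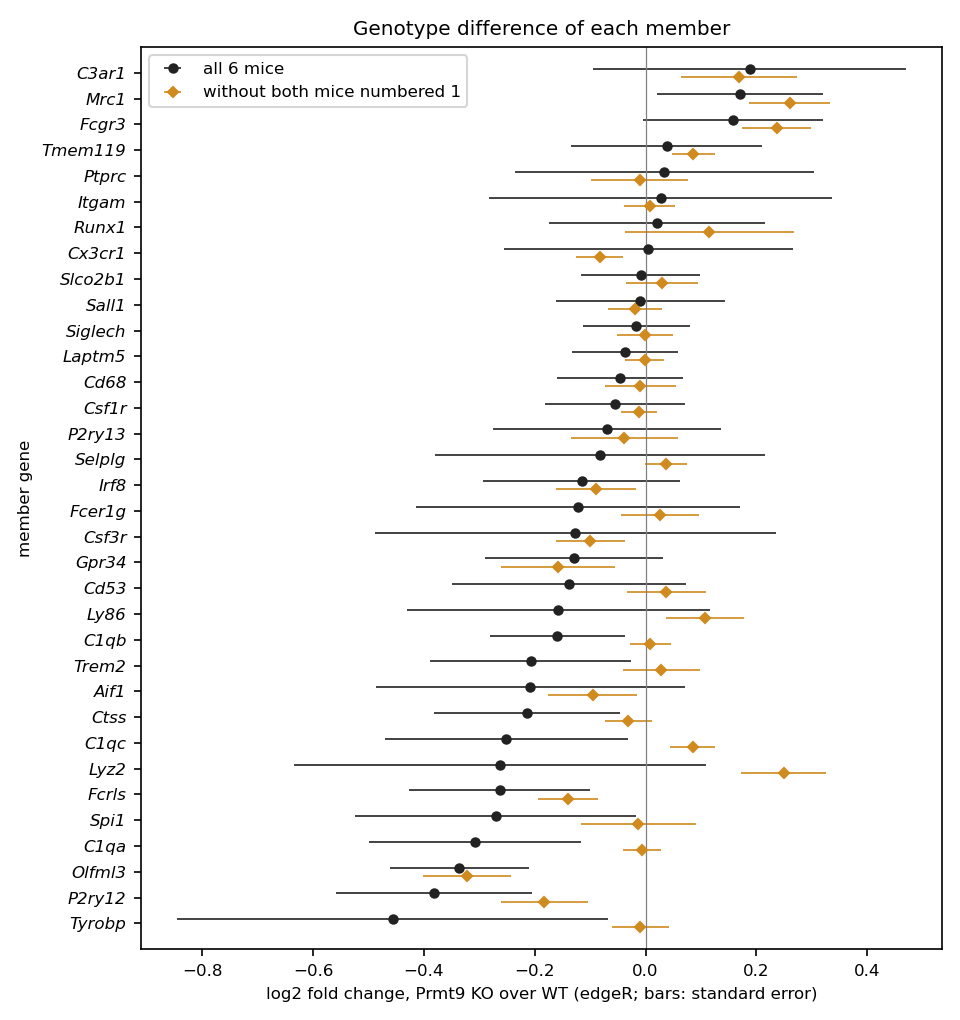
Log2 fold change of each member, Prmt9 KO over WT, from edgeR with all 6 mice (black circles) and without both mice numbered 1 (orange diamonds), with bars for the standard error. Most members lie left of 0 with all mice (26 of 34) and close to 0 without the mice numbered 1 (15 of 34 above 0), whereas Olfml3 stays at −0.34 and −0.32.

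Whether single members differed was also read from the deposited TPM of each mouse. Among the 32 members with at least 1 TPM on average, the 3 KO mice lay wholly above the 3 WT mice for 2 members, Fcgr3 and Mrc1 (6.25%, against 4.82% of all 15200 such genes). They lay wholly below for 3 members, P2ry12, Fcrls and Olfml3 (9.38%, against 1.15% of all such genes). All 3 are markers of resting microglia. All 5 members had p = 0.1 in the exact permutation test (two-sided), the smallest that groups of 3 allow. On TMM-normalized counts scaled to the library total (CPM), the groups stayed apart for P2ry12 and Olfml3, both lower, and overlapped for the other 3. With TPM divided by the median of each mouse, 0 members were higher and 3 lower (P2ry12, Siglech and Olfml3). The share over all genes is not given for these scales. Without both mice numbered 1, 18 of the 32 members lay apart, where 51.2% of all genes did.

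P2ry12 encodes the ADP receptor with which resting microglia sense injury, and it lies on the reverse strand of chromosome 3 (positions 59216272 to 59262871, GRCm38). Its level was 44.9, 42.4 and 39.7 TPM in WT and 32.8, 37.8 and 33.3 TPM in KO mice, so that every KO mouse was below every WT mouse. The means were 42.3 ± 2.61 and 34.6 ± 2.73 TPM (SD, n = 3 each), and KO stood at 81.9% of WT. The log2 fold change was −0.38 (SE 0.18, edgeR, unadjusted p = 0.0728, adjusted p = 0.99989), and −0.18 without both mice numbered 1. The whole of P2ry12 lies within Med12l, which is read on the other strand, and the sources used here do not say whether the counting used strand.

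Fcrls, an Fc receptor-like gene of mouse microglia, was at 35.0, 31.9 and 31.5 TPM in WT and at 28.9, 30.3 and 27.2 TPM in KO mice. The gap between the closest mice of the genotypes was small, and the log2 fold change was −0.26 (SE 0.16, edgeR, adjusted p = 0.99989), or −0.14 without both mice numbered 1.

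Olfml3, a secreted olfactomedin-like protein found in resting microglia, was at 8.07, 9.33 and 8.58 TPM in WT and at 7.34, 7.74 and 6.68 TPM in KO mice. The KO mice lay below all WT mice, at 83.8% of the WT mean. Most of the gene's TPM, a share of 0.745 to 0.802 per mouse, was assigned to a transcript annotated as a retained intron. A protein-coding transcript of Olfml3 was at 1.60, 2.37 and 2.19 TPM in WT mice. It was at 1.62, 1.78 and 1.69 TPM in KO mice, so the genotypes overlapped for it. The log2 fold change of −0.34 (SE 0.13) had an unadjusted p of 0.036 and an adjusted p of 0.99989 in edgeR, and it was −0.32 (adjusted p = 0.165) without both mice numbered 1. With the mouse number as a block, P2ry12, Fcrls and Olfml3 had unadjusted p of 0.0282, 0.0302 and 0.00276, so that 3 members in place of 1 were lower at that level, where 3.16% of all genes were lower and 2.58% higher. Their adjusted p was 0.791 in that fit.

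Fcgr3, the low-affinity receptor for immunoglobulin G, was at 19.6, 18.3 and 18.3 TPM in WT and at 23.6, 20.5 and 22.5 TPM in KO mice. All KO mice were above all WT mice, with means of 18.7 ± 0.738 and 22.2 ± 1.56 TPM (SD, n = 3 each). The log2 fold change was 0.16 (SE 0.16, edgeR, adjusted p = 0.99989) and without both mice numbered 1 it was 0.24. Fcgr3 shares long near-identical stretches with Fcgr2b, between which reads may have been split.

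Mrc1 encodes the mannose receptor CD206, which marks the macrophages of the meninges and vessel walls rather than microglia. It was at 2.75, 2.45 and 2.60 TPM in WT and at 2.996, 3.11 and 2.94 TPM in KO mice, again with no overlap. The log2 fold change was 0.17 (SE 0.15, edgeR, adjusted p = 0.99989), and it was 0.26 (adjusted p = 0.192) without both mice numbered 1. In that fit of 2 mice against 2, Fcgr3, Mrc1 and Lyz2 were higher and Fcrls and Olfml3 lower at an unadjusted p below 0.05, while 7.81% of all genes were higher and 8.59% lower at that level. No member had an adjusted p below 0.01 there.

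The promoters of P2ry12 and Mrc1 are shown because these members stood apart in opposite directions in TPM, although Mrc1 overlapped in CPM. They are the 250 bases before the start site, 5′ to 3′ on the strand of the gene, taken from RefSeq on GRCm38 (chr3:59262986-59263235 for P2ry12, reverse strand, and chr2:14229164-14229413 for Mrc1, forward strand). Capitals mark GGAAGT, or its complement ACTTCC, the core bound by ETS factors such as PU.1, the product of the member Spi1.
P2ry12: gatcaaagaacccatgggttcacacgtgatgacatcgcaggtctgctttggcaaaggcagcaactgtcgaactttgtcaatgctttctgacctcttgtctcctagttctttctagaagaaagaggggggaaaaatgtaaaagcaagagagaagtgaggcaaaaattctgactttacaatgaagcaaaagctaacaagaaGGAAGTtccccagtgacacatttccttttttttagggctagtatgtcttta
Mrc1: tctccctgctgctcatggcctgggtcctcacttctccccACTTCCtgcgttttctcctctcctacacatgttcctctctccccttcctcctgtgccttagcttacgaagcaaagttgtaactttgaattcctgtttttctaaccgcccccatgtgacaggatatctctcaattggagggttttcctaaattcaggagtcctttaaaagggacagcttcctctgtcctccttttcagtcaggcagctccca
The RefSeq starts are not those of GENCODE. The Mrc1 window runs past the GENCODE start at 14229392, so its last bases lie within an annotated Mrc1 transcript. The P2ry12 window stops short of the GENCODE gene, which begins at 59262871 on the reverse strand. Each of the windows holds the motif once. With the 50 bases after the start included, promoters were listed for 27 of the 34 members. On either strand, GGAAGT was found in 13 of them (48.1%, against 24.1% of 27025 promoters of the same length), and the longer PU.1-type motif GAGGAAGT, which contains it, in 4 (C1qc, Ctss, Cd53 and Slco2b1, or 14.8% against 3.28%). The RUNX core TGTGGT was found in 9 (33.3% against 16.9%). Of the 5 members whose groups lay apart, P2ry12, Fcrls and Mrc1 had GGAAGT, so that the motif occurred among members on both sides. Olfml3 and Fcgr3 were not among the 13, and whether promoters were listed for them is not given here. These matches describe the letters of the windows and nothing about binding.

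The remaining receptors of resting microglia did not separate the genotypes. Cx3cr1, the receptor of the neuronal chemokine fractalkine, was at 12.9, 31.3 and 29.5 TPM in WT and at 18.2, 28.8 and 28.01 TPM in KO mice. Both mice numbered 1 were low, and the other 4 mice lay close together. The log2 fold change was 0.01 (SE 0.26, edgeR, adjusted p = 0.99989). Tmem119, a membrane protein that marks microglia and not blood-borne macrophages, was at 14.0, 21.1 and 21.6 TPM in WT and at 14.5, 22.1 and 23.1 TPM in KO mice. Here again the mice numbered 1 were low in both genotypes, and the log2 fold change was 0.04 (SE 0.17). P2ry13, Siglech, Gpr34, Selplg and Slco2b1 had log2 fold changes between −0.13 and −0.0085, and none had an unadjusted p below 0.05.

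Csf1r, the receptor on which microglia depend for survival, was at 40.9, 70.6 and 67.2 TPM in WT and at 44.1, 65.9 and 68.0 TPM in KO mice, with a log2 fold change of −0.05 (SE 0.13, edgeR). The low values were again those of the mice numbered 1, and the means were 59.6 ± 16.2 and 59.3 ± 13.3 TPM (SD, n = 3 each). Csf3r, the receptor for granulocyte colony-stimulating factor, behaved likewise, at 2.19 and 2.41 TPM in the mice numbered 1 and 5.21 to 6.53 TPM in the others. Ligands of microglial receptors were read in the same libraries. Il34 was at 64.5 ± 5.87 TPM in WT and 59.2 ± 6.61 TPM in KO, Cx3cl1 at 411.2 ± 75.5 and 404.8 ± 36.7 TPM, Csf1 at 9.47 ± 3.33 and 9.76 ± 2.07 TPM, and Tgfb1 at 5.21 ± 0.672 and 4.73 ± 0.122 TPM (SD, n = 3 each). The groups overlapped for all 4 ligands. Of a list of 11 such ligands, edgeR called none and none had an unadjusted p below 0.05. Without both mice numbered 1, 1 was higher and 2 were lower at that level, as were 7.81% and 8.59% of all genes.

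The C1q chains, with which microglia mark synapses, were among the most abundant members. C1qa was at 95.1, 79.8 and 78.2 TPM in WT and at 62.1, 78.2 and 78.6 TPM in KO mice. C1qb was at 77.6, 81.0 and 84.2 TPM in WT and at 64.1, 82.6 and 83.2 TPM in KO mice. C1qc was at 99.5, 76.5 and 75.6 TPM in WT and at 66.9, 78.1 and 82.9 TPM in KO mice. In all 3 genes KO mouse 1 was the lowest of the 6 mice, and for C1qa and C1qc WT mouse 1 was the highest. The log2 fold changes were −0.31 (SE 0.19) for C1qa, −0.16 (SE 0.12) for C1qb and −0.25 (SE 0.22) for C1qc, with unadjusted p of 0.157, 0.236 and 0.295 in edgeR. They were −0.0071, 0.0084 and 0.08 without both mice numbered 1. Itgam, a chain of complement receptor 3 that binds opsonized synapses, had a log2 fold change of 0.03, and C3ar1, the receptor for the C3a fragment, one of 0.19 at under 1 TPM. Of 15 further genes of the complement cascade, 14 were tested, 0 were called and 0 had an unadjusted p below 0.05. Their median log2 fold change was 0.13 and 13 of the 14 were above 0. Leaving out both mice numbered 1, the median was 0.20, with 12 above 0 and 3 higher at an unadjusted p below 0.05. In that fit 7.81% of all genes were higher at that level.

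Trem2, the lipid receptor of activated microglia, was at 13, 9.84 and 10.4 TPM in WT and at 9.23, 10.3 and 10.5 TPM in KO mice. Its adaptor Tyrobp was at 112.8, 56.6 and 55.3 TPM in WT and at 66.7, 55.7 and 55.2 TPM in KO mice. WT mouse 1 was highest for both genes, and the other values overlapped between genotypes. Tyrobp had the most negative log2 fold change of the members (−0.46, SE 0.39, edgeR, adjusted p = 0.99989), which was −0.0095 without both mice numbered 1. Without WT mouse 1 alone it was 0.13. Fcer1g, the common Fc receptor gamma chain, had a log2 fold change of −0.12 (SE 0.29), and 0.03 without both mice numbered 1.

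Cd68, a glycoprotein of the macrophage lysosome, was at 12.97, 17.9 and 18.5 TPM in WT and at 14.7, 17.9 and 18.8 TPM in KO mice, with a log2 fold change of −0.05 (SE 0.11). Lyz2, the macrophage lysozyme, was at 14.6, 7.48 and 7.86 TPM in WT and at 9.17, 8.83 and 9.36 TPM in KO mice. WT mouse 1 was the highest and the other WT mice were below all KO mice, so the log2 fold change of −0.26 (SE 0.37, edgeR) turned to 0.25 (adjusted p = 0.217) without both mice numbered 1. Lyz2 is a near-identical copy of Lyz1, so its reads may have been split between both genes. Ctss, a lysosomal cysteine protease, and Laptm5, a lysosomal membrane protein, had log2 fold changes of −0.21 and −0.04.

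The transcription factors that set the identity of these cells overlapped between genotypes as well. Spi1, which encodes PU.1, the factor that all myeloid cells require, was at 6.32, 5.46 and 5.62 TPM in WT and at 6.33, 6.08 and 6.01 TPM in KO mice. Its log2 fold change was −0.27 (SE 0.25) on gene counts and −0.0019 with the effective transcript length of each mouse as an offset, a setting chosen after seeing the data. Irf8, a partner of PU.1, was at 2.92, 5.59 and 5.57 TPM in WT and at 3.49, 5.54 and 5.32 TPM in KO mice. Sall1, which keeps microglia in the resting state, was at 6.47, 11.0 and 10.6 TPM in WT and at 7.73, 10.2 and 11.1 TPM in KO mice. In Irf8 and Sall1 the mice numbered 1 were the lowest in both genotypes, and the log2 fold changes were −0.12 (SE 0.18) and −0.0097 (SE 0.15). Runx1, at 0.262 to 0.492 TPM, had a log2 fold change of 0.02. Among the leukocyte genes Aif1, which encodes the marker IBA1, Cd53, Ptprc and Ly86, the log2 fold changes lay between −0.21 and 0.03.

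The state of the cells was compared as the mean log2(TPM + 0.1) of the 12 homeostatic members minus that of the 10 activated members. The difference was −0.07, 0.46 and 0.39 in the WT mice and 0.08, 0.32 and 0.23 in the KO mice. It was lowest in the mouse numbered 1 of each genotype, and the genotypes overlapped through WT mouse 1 alone. WT mice 2 and 3 lay above all KO mice. The means were 0.26 ± 0.29 in WT and 0.21 ± 0.12 in KO (SD, n = 3 each). The difference between the means, −0.05, was smaller than the SD of either group. Over the alternatives it ranged from −0.22, without WT mouse 1, to 0.05. The summed level of the homeostatic members was 272.1 ± 42.2 TPM in WT and 258.5 ± 41.0 TPM in KO, and that of the activated members 252.7 ± 29.6 and 234.1 ± 10.2 TPM. Without both mice numbered 1 the difference between genotypes was −0.15, from 2 mice against 2.

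**Figure D3:**
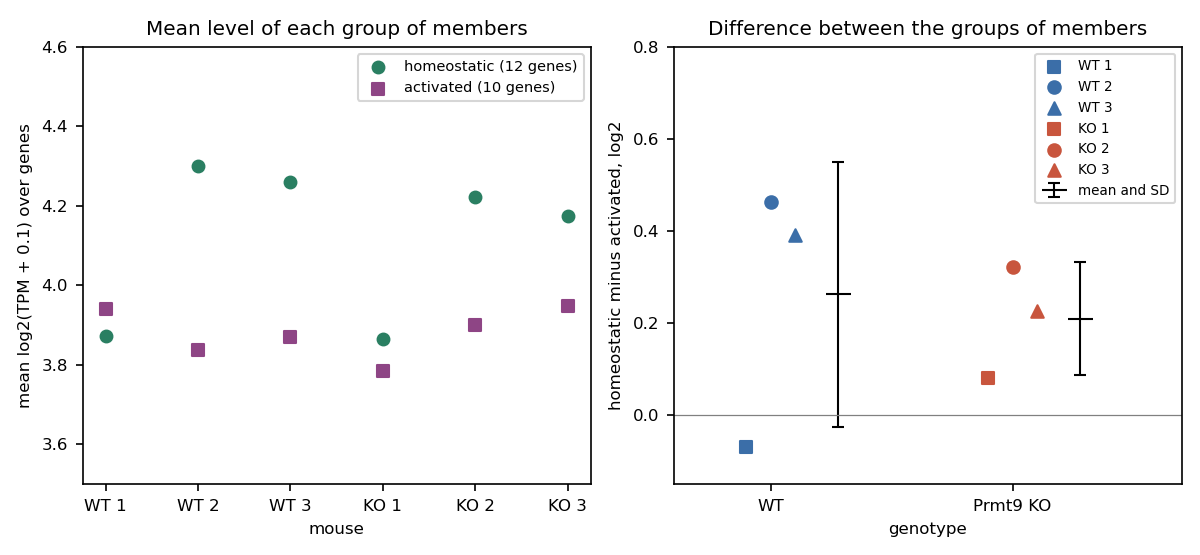
Left, mean log2(TPM + 0.1) of the 12 homeostatic (green circles) and 10 activated members (purple squares) in each mouse; right, their difference by genotype, with each mouse as a point and the mean and SD (n = 3) as bars. The homeostatic mean is lower in the mice numbered 1 (3.87 and 3.86) than in the other mice (4.17 to 4.30), and the genotypes overlap.

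The mice numbered 1 differed from the others by transcript length. Among the 32 members of at least 1 TPM, the log2 ratio of WT mouse 1 to the other WT mice fell with the length of the transcripts, weighted by TPM (Spearman's rho = −0.68 across genes), and that of KO mouse 1 did so too (rho = −0.50). Members of one sample are not independent points, and all share the same libraries. Over 15191 genes of that level the values were −0.43 and −0.31. Tyrobp, whose transcripts average 596 bases, was raised in WT mouse 1 by 1.01 on the log2 scale, whereas Cx3cr1, at 3485 bases, was lower there by a log2 ratio of −1.23. The homeostatic members are longer, with a median of 2377 bases, than the activated members, with a median of 1316 bases. Length and state of the members were therefore mixed in any comparison that includes the mice numbered 1, and the part of length in it was not tested.

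**Figure D4:**
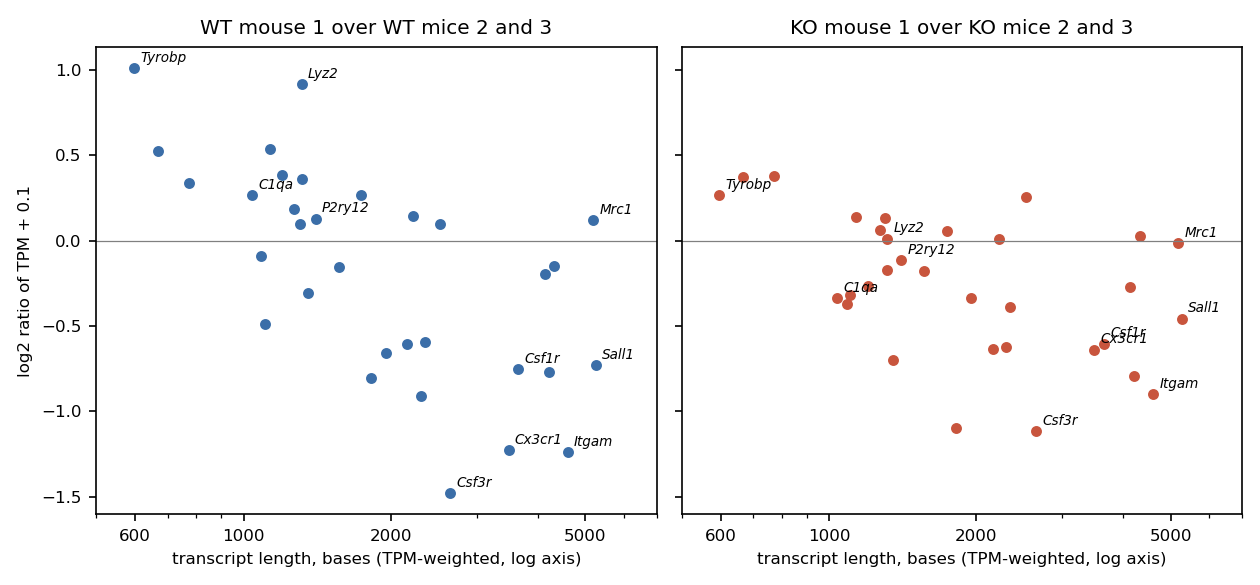
Log2 ratio of TPM in the mouse numbered 1 to the mean of the other 2 mice of the same genotype (WT left, KO right) against the TPM-weighted transcript length in bases (log axis) for the 32 members of at least 1 TPM. Points fall to the right in both panels (rho −0.68 and −0.50), from Tyrobp, the shortest, to Itgam and Sall1, but the long members Mrc1, Olfml3 and Slco2b1 lie near 0 (between −0.27 and 0.12).

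Markers of other cells were measured in the same libraries. Of the 15 lists examined, edgeR called no gene in any, and 6 genes had an unadjusted p below 0.05 (21 with the mouse number as a block). A pair of them belong to the macrophages of the brain borders, the list that shares Mrc1: Lyve1, a hyaluronan receptor, had a log2 fold change of 0.54 (unadjusted p = 0.0305) and F13a1, a transglutaminase chain, one of 0.63 (unadjusted p = 0.0185). Lyve1 was at 1.33, 1.52 and 1.29 TPM in WT and at 2.35, 2.13 and 2.23 TPM in KO mice. F13a1 was at 0.934, 1.60 and 1.54 TPM in WT and at 1.75, 2.29 and 2.29 TPM in KO mice. The KO mice lay above all WT mice for both genes, as they did for Mrc1 and for 4.82% of all genes. The groups overlapped for every other gene of the list. Folr2, Ms4a7, Pf4, Cbr2 and Stab1 were below 0, at −0.38, −0.37, −0.28, −0.06 and −0.06. The median of the 12 genes of the list was 0.12, with 7 above 0, and the adjusted p of every gene was 0.99989. Without both mice numbered 1 the median was 0.24, all 12 were above 0 and 5 had an unadjusted p below 0.05 (Mrc1, Lyve1, Pf4, F13a1 and Cd163), with adjusted p of 0.107 and above, where 7.81% of all genes were higher at that level. The choroid plexus and ependyma list moved in the same fit, from a median of −0.18 with all mice to 0.75, with 8 of 8 genes above 0 and 2 higher at an unadjusted p below 0.05. The summed level of the border macrophage list was 46.4 to 58.4 TPM in WT and 53.0 to 55.5 TPM in KO mice, so the sums overlapped, with none of the 12 genes at 0.

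Genes lower in KO at that level included Ms4a1, a lymphocyte gene at 0.347 TPM or less in every mouse, with a log2 fold change of −1.25, and the beta-globin genes Hbb-bs and Hbb-bt with −1.09 and −1.25. All 6 genes of the red blood cell list were below 0, with a median of −1.10 (−1.004 without both mice numbered 1), and their summed level was 2554 to 6335 TPM in WT and 1036 to 3276 TPM in KO mice, none at 0. The choroid plexus and ependyma list summed to 7344 TPM in WT mouse 1 and to 645.8 to 3385 TPM in the other mice, none at 0. WT mouse 1 was also the mouse with the highest Lyz2, Tyrobp and C1qc. The part of blood, border tissue or choroid plexus in the members' values was not tested.

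The lists closest to microglia showed no called gene. For 20 further genes of resting microglia the median log2 fold change was −0.04, with 7 above 0. It was −0.08 for 25 genes known to be raised in disease-associated microglia (8 above 0), −0.19 for 19 genes of the interferon response and antigen presentation (5 above 0), and 0.06 for the 16 tested genes of cytokines and NF-kB targets (10 above 0). No gene of these lists had an unadjusted p below 0.05 with all mice. Leaving out both mice numbered 1 gave medians of 0.05 for the further resting genes (15 of 20 above 0), −0.02 for the disease-associated genes (11 of 25), −0.04 for interferon and antigen presentation (7 of 19) and 0.16 for cytokines and NF-kB targets (13 of 16). Of all genes, 7.81% were higher and 8.59% lower in that fit at an unadjusted p below 0.05. At that level 3 further resting genes, 3 disease-associated genes and 4 cytokine genes were higher. The disease-associated and the interferon lists each had 1 gene lower. The further resting genes were Mertk, Crybb1 and Inpp5d, with log2 fold changes of 0.50, 0.45 and 0.30 (adjusted p of 0.128, 0.105 and 0.144), against 0.43, −0.08 and 0.19 with all mice; they are named after their values were seen. Monocytes and granulocytes had a median of −0.27, lymphocytes −0.19, neurons −0.04, astrocytes 0.03, the oligodendrocyte lineage −0.25 and endothelial and mural cells −0.08. These became −0.07, −0.19, −0.06, 0.09, −0.18 and −0.05 without both mice numbered 1. At an unadjusted p below 0.05 in that fit, the astrocyte list had 4 of 10 genes higher and 1 lower. The red blood cell list had 5 of 6 lower, lymphocytes 2, endothelial and mural cells 2 and neurons 1. Monocytes and granulocytes and the oligodendrocyte lineage had none.

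Because the study concerns splicing, the transcripts of the members were compared too. For the 26 members with at least 2 annotated transcripts and 1 TPM, the share of the gene's TPM from its most abundant transcript was taken in each mouse. The genotypes did not overlap for 5 of the 26, where 8.71% of 13055 such genes did not: the share was higher in KO for Trem2, Ptprc and Csf3r and lower for Siglech and Cd68. For Ptprc and Csf3r, WT mouse 1 lay far below all other mice, at 0 and 0.06 of the gene. The leading transcript of Siglech had a share of 0.409, 0.395 and 0.389 in WT and of 0.338, 0.304 and 0.325 in KO mice, with means of 0.397 ± 0.0101 and 0.323 ± 0.0171 (SD, n = 3 each). That of Cd68 had shares of 0.851, 0.756 and 0.769 in WT and of 0.755, 0.729 and 0.755 in KO mice, with hardly any gap. Computed from estimated counts, the share kept the groups apart for 2 members, Ptprc and Siglech. With only protein-coding transcripts in the denominator, they lay apart for Trem2, Siglech and Irf8. The share over all genes is not given for these alternatives, so their counts are no result about the members.

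The exon choices behind the shares of Trem2, Siglech and Cd68 were then looked up in the annotation. These genes were picked after their values were seen, so the values are descriptions. Trem2 lies on chromosome 17 (48346401 to 48354147, forward strand, GRCm38). In a longer form its exon 4 begins 55 bases earlier (chr17:48351691-48351745) than in the main form, the most abundant transcript, which is an alternative 3′ splice site within the coding sequence. Below, 30 bases of the neighbouring exon parts stand on both sides in lower case, and capitals mark the bases that the main form leaves out.
Trem2, longer form: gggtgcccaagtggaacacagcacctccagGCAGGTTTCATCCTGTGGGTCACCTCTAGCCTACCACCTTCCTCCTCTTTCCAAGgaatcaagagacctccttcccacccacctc
Trem2, main form: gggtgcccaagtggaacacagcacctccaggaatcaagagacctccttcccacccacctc
The 55 bases leave a remainder of 1 after division into codons, so the reading frame changes, and the annotated coding sequence is 227 codons long in the main form and 249 codons in the longer form. The share of the longer form was 0.212, 0.191 and 0.170 in WT and 0.150, 0.147 and 0.129 in KO mice, so every KO mouse was below every WT mouse. The means were 0.191 ± 0.0209 and 0.142 ± 0.0118 (SD, n = 3 each), a difference of −0.0489, and between mice of the same number it was −0.0615, −0.0438 and −0.0416. With estimated counts the difference was −0.0400, again without overlap. The transcripts at this site summed to at least 9.07 TPM and 1361 estimated counts per mouse. In TPM data the share rests on kallisto's assignment of reads to whole transcripts, not on junction reads. The transcript with the longer exon 4 has 1056 bases and the main one 1088, so they also differ outside the 55 bases. A retained-intron transcript of 4784 bases was counted with the main form.

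The same check gave overlapping groups for the exons of the other genes. The share of Siglech transcripts with the cassette exon of 279 bases that the leading transcript lacks was 0.577, 0.571 and 0.551 in WT and 0.651, 0.544 and 0.594 in KO mice. For Cd68, 1 transcript of which lacks an exon of 434 bases, the share with the exon was 0.890, 0.825 and 0.806 in WT and 0.799, 0.769 and 0.814 in KO mice.

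**Figure D5:**
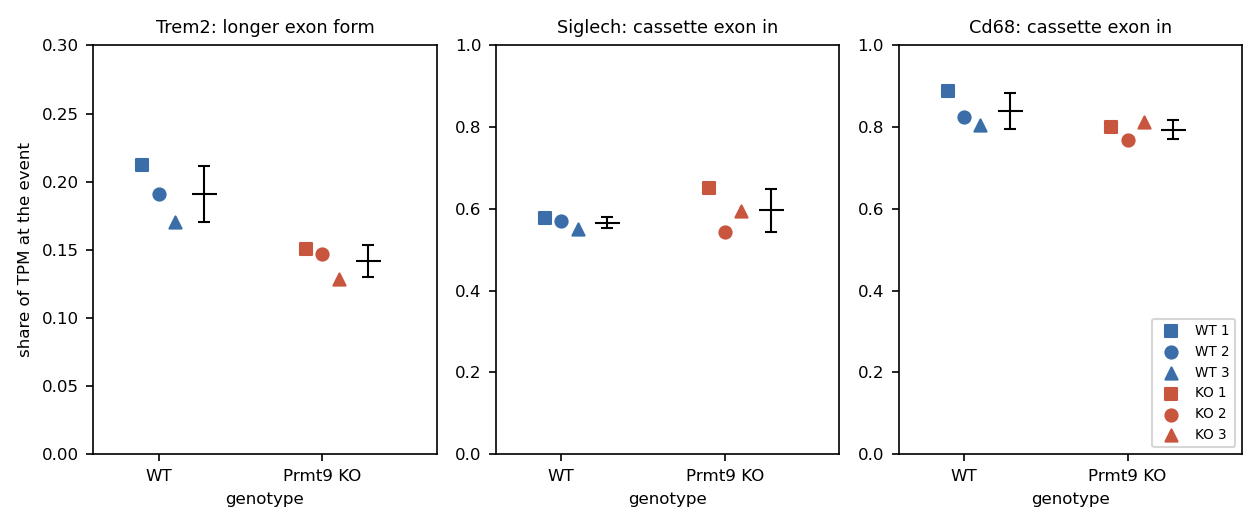
Share of TPM that includes the alternative exon part of Trem2 (55 bases) and the cassette exons of Siglech and Cd68 in each mouse, by genotype, with the mean and SD (n = 3) as bars and 1 marker shape per mouse number. For Trem2 all KO mice (0.129 to 0.150) lie below all WT mice (0.170 to 0.212), and for Siglech and Cd68 the genotypes overlap; the Trem2 axis ends at 0.3, the others at 1.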

How the data were processed

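Hippocampus of 3 WT and 3 Prmt9 KO mice was profiled by stranded poly(A) RNA-seq with paired 100-base reads. The authors quantified annotated transcripts with kallisto (version 0.46.0 per the labels' processing notes, which also name STAR 2.7.1a; the study's methods give a different kallisto version) and deposited, for each mouse, estimated counts and TPM of 118783 transcripts, with gene TPM summed over transcripts in a separate table. Whether kallisto was run with a strand option is not given in the sources used here. GENCODE M21 (GRCm38) matched 116710 transcripts, and 2073 were left out. Member sums of transcript TPM equalled the deposited gene TPM within 0.001 for 34 of 34 members, through 137 transcripts.

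From the deposited estimated counts, gene sums were rounded and compared with edgeR 4.0.16 (R 4.3.3; TMM, default count filter, quasi-likelihood test, Benjamini-Hochberg over 20335 genes), with calls at the study's limits (adjusted p 0.01, 1.5-fold). The study's methods name DESeq2, run here (1.42.0) as an alternative, as was limma 3.58.1 on log2(TPM + 1) and log2(TPM + 0.1). Tests were checked on simulated counts without outlying mice, so that check does not cover the effect of the mice numbered 1. The mice are separate animals. Depth was 194098391 to 286771677 estimated counts per mouse, and TPM carries no interval of its own.

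Mice of the same number deviated together from their group means (r = 0.808, 0.743 and 0.704 for numbers 1, 2 and 3), but mice numbered 2 and 3 did so with each other's partner too (0.758 and 0.673), so the numbers chiefly set the mice numbered 1 apart. The labels say nothing of a shared litter or day.

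Members and lists were chosen with earlier results of these data known. All members are accounted for; values in every mouse are given for 15 members fixed by name and any with an unadjusted p below 0.05 or groups that do not overlap, and from the lists, genes with an unadjusted p below 0.05 and 4 ligands are named, except 1 item that is not reported here. Fits without both mice numbered 1, with a batch term for them, and with transcript length offsets were chosen after seeing the data. Promoter sequences are from RefSeq (GRCm38.p6) and transcript sequences from GENCODE.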

Additional observations from a re-analysis of the deposited data

How the results depend on the processing

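Under 16 alternatives of the gene test, edgeR, DESeq2 and limma called 0 members and 0 genes of the lists at the study's threshold. Relaxing it to an unadjusted p below 0.05 gave 1 member. The count of members at that level was 0 with limma on log2(TPM + 0.1) and with transcript length offsets, 3 with the replicate block, 3 when the mice numbered 1 had a batch term, 5 without both of them, and 0 to 2 with single mice left out. For the lists it went from 6 to 10 with DESeq2, 3 with at least 100 counts in every mouse, 21 with the replicate block, 29 with the batch term, 39 without both mice numbered 1, and 3 to 13 with single mice left out. The block, by mouse number, changed no other call. Of all genes, 2.58% were higher and 3.16% lower at an unadjusted p below 0.05 with the block. Without both mice numbered 1 these shares were 7.81% and 8.59%.

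The median log2 fold change of the members moved from −0.12 to −0.032 with limma on log2(TPM + 1) and log2(TPM + 0.1), −0.0044 without both mice numbered 1, and −0.12 to −0.016 with single mice left out. Members whose groups do not overlap numbered 2 in CPM and 3 in TPM over the mouse median, without a share over all genes beside them. They numbered 18 without both mice numbered 1, where 51.2% of all genes lay apart. With single mice left out they numbered 5 to 13. The most were without WT mouse 1, with 40.6% of members and 34.8% of all genes apart. Without KO mouse 1 the shares were 28.1% and 19.7%. Without any other single mouse they were 15.6% to 18.8% of members and 8.57% to 10% of all genes. For leading transcript shares the count of 5 became 2 with estimated counts and 3 with protein-coding transcripts alone. It became 11 without both mice numbered 1, and 8 to 9 with single mice left out. The share over all genes is given for the main setting alone (8.71%). The counts under these alternatives are therefore no result about the members.

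Signs turned as follows among the 18 members followed under all 16 alternatives. With limma on log2(TPM + 1) and log2(TPM + 0.1), Csf1r was 0.0077 and 0.0081, Cd68 0.062 and 0.065, Spi1 0.072 and 0.083, Irf8 0.042 and 0.056, and Sall1 0.061 and 0.070. With transcript length offsets, Cx3cr1 was −0.0007, Cd68 0.0019 and Sall1 0.0032. Without both mice numbered 1, Cx3cr1 was −0.082, C1qb 0.0084, C1qc 0.085, Trem2 0.028 and Lyz2 0.25, and of the other 16 members 6 turned (Ly86 0.11, Cd53 0.037, Fcer1g 0.026, Selplg 0.037, Slco2b1 0.030 and Ptprc −0.011). With single mice left out, Cx3cr1 spanned −0.22 to 0.16, Tmem119 −0.052 to 0.19, Csf1r −0.11 to 0.049, C1qc −0.38 to 0.046, Tyrobp −0.68 to 0.13, Cd68 −0.095 to 0.015, Lyz2 −0.49 to 0.30, Spi1 −0.44 to 0.044, Irf8 −0.21 to 0.013 and Sall1 −0.11 to 0.093. The cause was not tested. P2ry12, Fcrls, Olfml3, Fcgr3, Mrc1 and C1qa kept their sign in all 16 alternatives. All but C1qa are the members whose groups lay apart in TPM, so refitting the same mice could hardly turn their sign. Their kept signs are therefore no further evidence of a difference. C1qa was at −0.0071 without both mice numbered 1. Prmt9 passed the threshold with DESeq2 (adjusted p = 1.44e-60), with the batch term and without both mice numbered 1. The lowest count of any member in a mouse was 177. With 3 mice per genotype no exact permutation p can be below 0.1.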
